A study of Homo sapiens with 12 samples.

Results

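The replication-dependent histone genes were read as the 70 rows of the value table whose gene name starts with HIST and a cluster number, among 34687 rows in all. They comprised 6 rows of the linker histone H1, 17 of H2A, 18 of H2B, 14 of H3 and 15 of H4. Of the 70 names, 65 matched 1 gene of the RefSeq table for assembly GRCh38.p14 and 5 H2B names matched more than 1; 55 lay on chromosome 6, 14 on chromosome 1 and 1 on chromosome 12. RNA came from a human colon cancer line, HCT116, and a human pancreatic adenocarcinoma line, PANC1. Cells of each line received DMSO (0.05%, the solvent control), ICG-001 (10 uM) or C646 (10 uM), and were collected after 12 or 96 h. ICG-001 blocks the binding of the coactivator CBP to β-catenin, and C646 inhibits the acetyltransferase activity of CBP and of its relative p300. Each of the 12 groups had 1 column of signal intensity from Illumina HumanHT-12 BeadChips, averaged by the authors over 2 arrays (3 for ICG-001 12 h in PANC1 cells). Values of single arrays were not used here, so no difference below has an error, a test or a replicate check, and the number of arrays limits the precision.

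Histone cluster genes supply the bulk of new chromatin while DNA is copied. Pairs of H2A and H2B and of H3 and H4 form the nucleosome core, and H1 binds the DNA between nucleosomes. Most of their mRNAs carry no poly(A) tail and end in a stem-loop that is bound by SLBP, while NPAT drives their transcription at the start of S phase. Some members, among them HIST1H2BK, HIST1H2BD, HIST1H2AC, HIST2H2BE and HIST1H1C, also yield polyadenylated transcripts in cells that leave the cycle or differentiate. The array labelling starts from the poly(A) tail, so a row may read only the polyadenylated share of its mRNA. In a bulk RNA sample fewer cells in S phase and less histone mRNA per cell cannot be told apart.

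A row was taken as detected when its signal lay above a limit set from the background of its column, which was 142.951 to 144.186 in HCT116 cells and 134.727 to 138.204 in PANC1 cells. Between 44.3% and 47.9% of all rows passed the limit in a column, against 18 to 22 histone rows in HCT116 columns and 25 to 30 in PANC1 columns. Comparisons took in each row that passed in either of their columns, and a row was called higher or lower at a ratio of at least 1.5-fold. A row that passed in 1 of the columns only was mostly brighter there by construction, so directions were counted among rows that passed in both. Background was left in the deposited signal, so ratios of dim rows understate their changes. The lines appeared to have been normalized apart and were compared only through their ratios. HCT116 columns carried the intestinal markers CDX2 and EPCAM above the limit in all 6 columns, but CDX1, VIL1, CDH17 and LGALS4 in none. In PANC1 columns KRT7, KRT8, KRT18, KRT19, SOX9 and VIM were above the limit in all 6. The leukocyte markers PTPRC and CD3E were at or under it in every column of both lines.

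Detection of histone rows was uneven across the types. In all, 37 of the 70 rows were detected in some of the 12 columns, 25 of them in both lines, and 33 in none. Rows that were never detected comprised 3 H1, 9 H2A, 7 H2B, 6 H3 and 8 H4 names. In HCT116 cells 14 rows passed in all 6 columns, comprising 1 H1, 5 H2A, 2 H2B, 2 H3 and 4 H4 rows. In PANC1 cells 24 rows did so, comprising 2 H1, 6 H2A, 8 H2B, 3 H3 and 5 H4 rows. The 13 rows above the limit in all 12 columns were HIST1H1C; the H2A rows HIST1H2AC, HIST2H2AA3, HIST2H2AA4, HIST2H2AC and HIST3H2A; the H2B rows HIST1H2BD and HIST1H2BK; the H3 rows HIST1H3E and HIST1H3F; and the H4 rows HIST1H4C, HIST2H4A and HIST2H4B. Among them were 4 of the 5 members listed above as polyadenylated, and HIST2H2BE missed the limit only in the HCT116 C646 12 h column, at a signal of 136.

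The promoters of the 4 listed members that reached 1.5-fold in a drug comparison are shown with the sequence elements marked that are counted below. They belong to H1, H2A and H2B genes, so no H3 or H4 window is shown. Each window runs from 250 bases upstream to 50 bases downstream of the transcription start (RefSeq, GRCh38.p14) and is written 5′ to 3′ on the strand of the gene: HIST1H2BK at chr6:27146809-27147108 on the minus strand, HIST1H2AC at chr6:26123922-26124221 on the plus strand, HIST1H2BD at chr6:26157871-26158170 on the plus strand and HIST1H1C at chr6:26056421-26056720 on the minus strand. Capitals mark the octamer ATTTGCAT, the site of OCT1 in H2B promoters, the CCAAT box CCAAT and the TATA box TATAAA, each on either strand, and neighbouring capitals may belong to overlapping matches.
HIST1H2BK: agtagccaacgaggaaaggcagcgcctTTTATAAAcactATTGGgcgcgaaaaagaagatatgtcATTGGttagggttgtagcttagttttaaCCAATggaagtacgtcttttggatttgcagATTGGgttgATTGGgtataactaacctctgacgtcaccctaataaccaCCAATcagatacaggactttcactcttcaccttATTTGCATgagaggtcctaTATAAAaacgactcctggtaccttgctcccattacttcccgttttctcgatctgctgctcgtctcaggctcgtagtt
HIST1H2AC: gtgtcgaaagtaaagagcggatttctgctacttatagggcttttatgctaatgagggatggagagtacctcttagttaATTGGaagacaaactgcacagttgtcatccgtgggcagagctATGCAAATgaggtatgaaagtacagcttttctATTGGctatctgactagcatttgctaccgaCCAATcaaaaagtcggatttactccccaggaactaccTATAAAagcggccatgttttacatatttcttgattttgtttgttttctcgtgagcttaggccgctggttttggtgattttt
HIST1H2BD: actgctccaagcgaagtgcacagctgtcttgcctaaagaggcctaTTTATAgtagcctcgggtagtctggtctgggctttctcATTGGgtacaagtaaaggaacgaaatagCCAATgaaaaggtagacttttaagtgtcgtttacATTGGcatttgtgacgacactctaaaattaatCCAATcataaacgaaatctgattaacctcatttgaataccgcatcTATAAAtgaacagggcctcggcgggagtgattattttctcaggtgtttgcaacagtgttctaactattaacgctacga
HIST1H1C: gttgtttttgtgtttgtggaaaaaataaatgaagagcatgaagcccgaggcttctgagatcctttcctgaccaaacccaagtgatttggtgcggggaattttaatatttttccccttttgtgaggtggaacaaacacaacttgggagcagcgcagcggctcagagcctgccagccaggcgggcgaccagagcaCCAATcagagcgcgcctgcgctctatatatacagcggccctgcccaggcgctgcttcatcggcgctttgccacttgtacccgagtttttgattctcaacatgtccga
The octamer letters began at position -46 in HIST1H2BK and at -130 in HIST1H2AC, and were not in the windows of HIST1H2BD and HIST1H1C. The single CCAAT box of HIST1H1C began at -57. Of the 70 members, 60 had 1 window. The octamer stood in 21 of these 60 (35%), against 1.80% of 27305 promoters of the same length. It was held by 68.8% of 16 H2A windows, 69.2% of 13 H2B windows and 8.33% of 12 H3 windows, and by 0 of 6 H1 and 0 of 13 H4 windows. The 1 H3 window with the octamer, that of HIST1H3D, is the same stretch of DNA as the window of the H2A gene HIST1H2AD, so this stretch was counted under both types. Some H2A and H2B genes start close together on opposite strands, so their windows overlap. The pairs HIST1H2AA/HIST1H2BA, HIST1H2AJ/HIST1H2BM, HIST1H2AM/HIST1H2BO, HIST1H2AG/HIST1H2BJ and HIST2H2AC/HIST2H2BE each hold 1 octamer that was counted under both genes. The H2A and H2B shares are therefore not counts of separate sites. CCAAT letters stood in 83.3% of histone windows against 35.7% of all promoters, in every H1, H2A, H2B and H3 window and in 3 of 13 H4 windows. The TATA letters stood in 66.7% of histone windows against 12.0% of all promoters. A match describes these letters and does not show that a factor binds there.

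Across the 8 comparisons of a drug with DMSO, 8 calls were made among histone rows, all in HCT116 cells at 96 h. Of the 8, 6 were H2A or H2B rows. For ICG-001 22 histone rows were tested there, among them 6 H2A and 5 H2B rows. For C646 there were 25, among them 6 H2A and 8 H2B rows. Over all rows 5.1% were lower and 5.12% higher with ICG-001, and 1.22% and 1.9% with C646. The remaining comparisons gave no call, where the share of all rows called in 1 direction was 0.334% to 4.81%. With ICG-001, 4 of the 5 listed polyadenylated members were lower, and the H2A and H2B rows HIST1H2AC, HIST1H2BD and HIST2H2AA4 were higher with C646. The 5 were listed with earlier results of these data known, so this count cannot set them apart from other members. No member passed 1.5-fold against DMSO in PANC1 cells. Among rows detected in every column of their line, H3 had the narrowest range of log2 ratios over DMSO. It was -0.16 to 0.18 for 2 rows in HCT116 cells and -0.12 to 0.11 for 3 rows in PANC1 cells. The 2 HCT116 rows were dim (HIST1H3E at 159 to 194, HIST1H3F at 146 to 164). The 3 PANC1 rows were dim as well (HIST1H3D at 143 to 166, HIST1H3E at 149 to 164, HIST1H3F at 153 to 175). In both lines the changes of H3 rows may therefore be understated, and the narrow range cannot be told apart from low signal. H3 rows detected in fewer columns reached -0.25 (HIST1H3H, HCT116 ICG-001 12 h) and -0.23 (HIST1H3C, PANC1 C646 12 h).

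**Figure D1:**
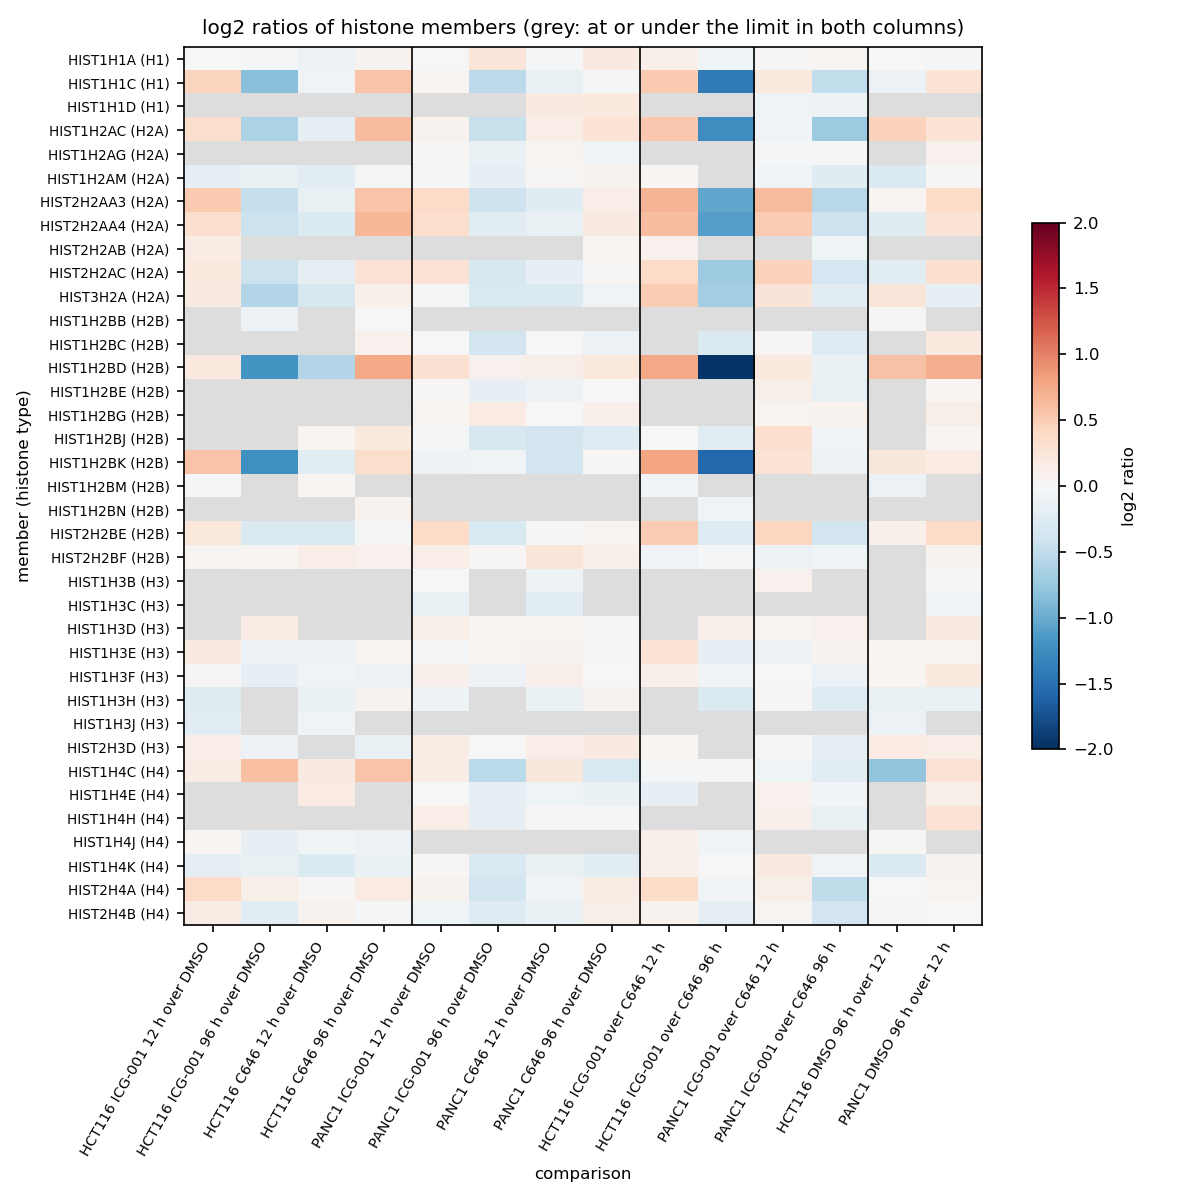
Log2 ratios of the 37 histone rows that passed the detection limit in at least 1 column (rows, grouped by histone type) in the 14 comparisons (columns), with red for higher, blue for lower and grey where a row was at or under the limit in both columns compared. The strongest blue is HIST1H2BD in HCT116 ICG-001 over C646 at 96 h (-1.96), and the H3 and most H4 rows stay pale. The H3 rows are dim, so their changes may be understated.

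ICG-001 at 96 h in HCT116 cells gave the largest number of calls against DMSO, 4 lower and 1 higher of 22 histone rows tested. Over all 17147 rows tested, 5.1% were called lower and 5.12% higher. The median log2 ratio of the histone rows was -0.17 and that of all rows 0.00. Among the 16 histone rows above the limit in both columns the median was -0.36 and 14 lay below 0, as did 49.6% of 14288 rows. With background removed by normexp, a correction that models it from the signals, 10 of the 22 histone rows passed 1.5-fold, as did 22.1% of all rows. HIST1H2BK, an H2B gene of the large chromosome 6 cluster, had a signal of 828 (DMSO), 1233 (ICG-001) and 714 (C646) at 12 h and of 965, 414 and 1231 in the same order at 96 h. Its ICG-001 column was thus the highest of the 3 at 12 h and the lowest at 96 h, where it fell by 1.22 on the log2 scale. HIST1H2BD, another H2B gene of that cluster, stood at 372 (DMSO), 427 (ICG-001) and 249 (C646) at 12 h and at 556, 242 and 938 at 96 h, and it fell 2.30-fold with ICG-001 at 96 h (log2 ratio -1.20).

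HIST1H1C, which encodes the linker histone H1.2, had 662 (DMSO), 900 (ICG-001) and 629 (C646) at 12 h and 609, 341 and 906 at 96 h. It fell 1.79-fold with ICG-001 at 96 h, while its C646 column was 1.49-fold above DMSO, just short of a call. HIST1H2AC, an H2A gene, had 211 (DMSO), 270 (ICG-001) and 185 (C646) at 12 h and 291, 189 and 448 at 96 h. It was called in both directions at 96 h, 1.53-fold lower with ICG-001 and 1.54-fold higher with C646. The fifth listed member, the H2B gene HIST2H2BE of the chromosome 1 cluster, was dimmer: its signals were 166 (DMSO), 192 (ICG-001) and 136 (C646) at 12 h and 179, 146 and 175 at 96 h. Its ICG-001 column at 96 h had a log2 ratio of -0.29 and was not called.

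Among the members not on that list, the median log2 ratio for ICG-001 at 96 h was -0.14 over 17 rows. That list was drawn up with earlier results of these data known, so the split is a description only. The 5 H2A rows above the limit in every HCT116 column all lay below 0 (log2 ratios -0.62 to -0.43). HIST1H2AC, a listed member, is among these H2A rows and had the lowest ratio. The median over all rows tested was -0.45 for 6 H2A rows, -0.29 for 5 H2B rows, -0.11 for 4 H3 rows and -0.15 for 5 H4 rows. HIST3H2A, an H2A gene of the small cluster on chromosome 1, had 573 with DMSO and 383 with ICG-001 at 96 h, a ratio just under the threshold (log2 ratio -0.58). HIST2H2AA3 and HIST2H2AA4 are near-identical copies on chromosome 1, and which copy each row reads cannot be told apart. They had log2 ratios of -0.47 and -0.43 with ICG-001 at 96 h, from 229 to 166 and from 256 to 190.

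HIST1H4C went the other way. Its signals in HCT116 cells were 20021 (DMSO), 22074 (ICG-001) and 22731 (C646) at 12 h and 11608, 17661 and 17327 at 96 h. It was called 1.52-fold higher with ICG-001 at 96 h and stood 1.49-fold higher with C646. Both comparisons share the DMSO 96 h column, which was the lowest of the 6 for this H4 gene, and both drug columns at 96 h lay between the DMSO signals of 12 and 96 h. Only 8 to 255 of the 34687 rows were brighter in an HCT116 column, so HIST1H4C was measured near the top of the scale.

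**Figure D2:**
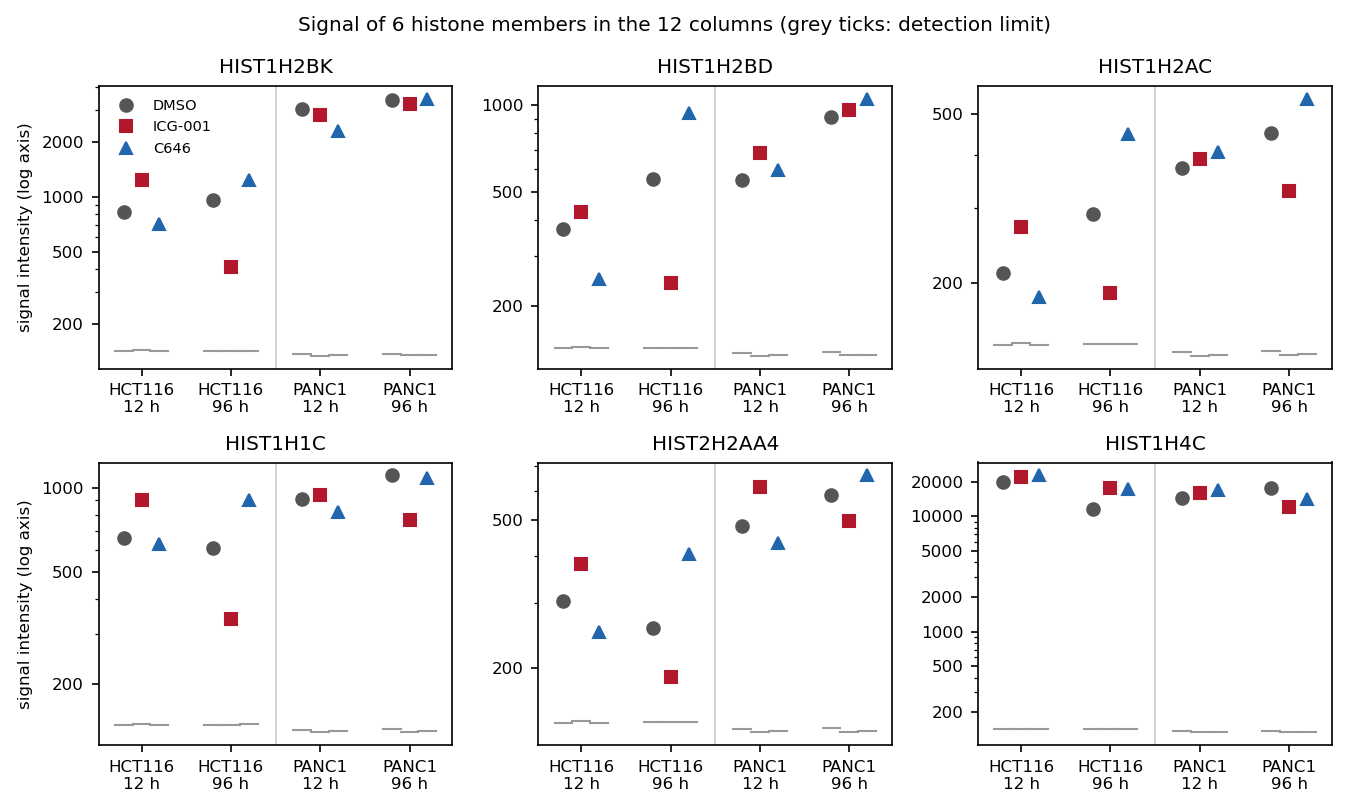
Signal intensity (log axis) of HIST1H2BK, HIST1H2BD, HIST1H2AC, HIST1H1C, HIST2H2AA4 and HIST1H4C in the 12 columns, with circles for DMSO, squares for ICG-001, triangles for C646 and grey ticks for the detection limit of each column; a point is the authors' mean of 2 or 3 arrays and has no error bar. In HCT116 cells at 96 h the squares lie lowest and the triangles highest in the first 5 panels (HIST1H2BD: 242 and 938), whereas in the HIST1H4C panel the circle lies lowest, at 11608.

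At 12 h ICG-001 gave no call among 24 histone rows in HCT116 cells, where 4.81% of 17061 rows were called higher and 4.15% lower. Their median log2 ratio was 0.14, and 15 of the 18 above the limit in both columns had a ratio above 0, as did 50.5% of 14176 rows. All 5 listed members lay above 0, with a median of 0.36 and a range of 0.20 to 0.57. HIST1H2BK was 1.49-fold above DMSO and HIST2H2AA3 1.44-fold, from 219 to 317. The largest ratio below 0 was -0.25, for HIST1H3H. With normexp 6 of the 24 passed 1.5-fold, as did 21.4% of all rows.

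The 2 time points of a drug use separate columns throughout, so their signs can be set side by side. Of 16 histone rows above the limit in all 4 columns with ICG-001 and DMSO in HCT116 cells, 12 (75%) were above DMSO at 12 h and below it at 96 h, and 0 had the opposite order. Of all 13316 rows above the limit in these columns 1919 had the first order and 1998 the second. In PANC1 cells 13 of 24 such histone rows were above DMSO at 12 h and below it at 96 h and 1 had the opposite order, against 15.8% and 14.9% of 13857 rows. Many of these ratios are small and their signs have no replicate check. In these and later counts, near-identical copies such as HIST2H2AA3 and HIST2H2AA4 entered as separate rows.

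In HCT116 cells with C646, at 12 h 0 of 24 histone rows were called, where 2.57% of 17156 rows were higher and 1.52% lower. Their median log2 ratio was -0.11, and 13 of the 17 above the limit in both columns lay below 0, as did 51.7% of 14413 rows. HIST1H2BD, from 372 to 249, lay closest to a call (log2 ratio -0.58). With normexp 2 of the 24 passed, as did 11.7% of all rows. At 96 h 3 of 25 histone rows were called higher and 0 lower, against 1.9% and 1.22% of 16880 rows. These were HIST1H2BD (1.69-fold), HIST2H2AA4 (1.58-fold, from 256 to 405) and HIST1H2AC (1.54-fold). With normexp 6 of the 25 passed, as did 8.95% of all rows. HIST2H2AA3 stood 1.48-fold above DMSO, from 229 to 340, and the median was 0.43 for the 6 H2A rows, 0.08 for 8 H2B rows, -0.03 for 4 H3 rows and -0.02 for 5 H4 rows. Of 15 histone rows above the limit in all 4 columns, 9 (60%) were below DMSO at 12 h and above it at 96 h, and 1 had the reverse order, against 14.8% and 13.2% of 13516 rows. In PANC1 cells with C646 9 of 26 such rows were below and then above DMSO and 6 had the reverse order, against 11.1% and 13.8% of 13732 rows.

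Since both drug comparisons share a DMSO column, the drugs were also set against each other without it. In HCT116 cells at 96 h the 23 histone rows had a median log2 ratio of -0.23, and ICG-001 lay below C646 in 16 of the 17 above the limit in both columns, as in 50.3% of 14417 rows. Of the 23 rows, 8 were called lower and 0 higher, against 3.29% and 3.24% of 17064 rows. The 8 included all 5 H2A rows tested: HIST1H2AC (2.36-fold lower), HIST2H2AA4 (2.14-fold), HIST2H2AA3 (2.05-fold), HIST2H2AC (1.65-fold) and HIST3H2A (1.61-fold). The others were HIST1H2BD (3.88-fold), HIST1H2BK (2.97-fold) and HIST1H1C (2.66-fold). HIST2H2AA3 and HIST2H2AA4 are near-identical copies, so their calls may not be separate. None of the 4 H3 and 5 H4 rows was called, and HIST1H4C had a log2 ratio of 0.03. Without the 5 listed members the median was -0.13 over 18 rows.

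At 12 h the order was turned. The median log2 ratio of 24 histone rows in HCT116 cells was 0.10, and ICG-001 lay above C646 in 15 of the 17 above the limit in both columns, as in 50.3% of 14233 rows. The median of these 17 was 0.37. Of the 24 rows, 4 were called higher and 0 lower, against 3.44% and 2.81% of 17129 rows: HIST1H2BK (1.73-fold), HIST1H2BD (1.72-fold), HIST2H2AA3 (1.59-fold) and HIST2H2AA4 (1.53-fold). The calls of the near-identical copies HIST2H2AA3 and HIST2H2AA4 may again not be separate. With normexp 10 of the 24 passed, as did 17.0% of all rows. None of these 4 reached 2-fold, whereas at 96 h 6 of the 8 rows were lower by over 2-fold. Of 15 histone rows above the limit in all 4 columns, 13 (86.7%) were above C646 at 12 h and below it at 96 h, against 18.6% of 13359 rows.

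**Figure D3:**
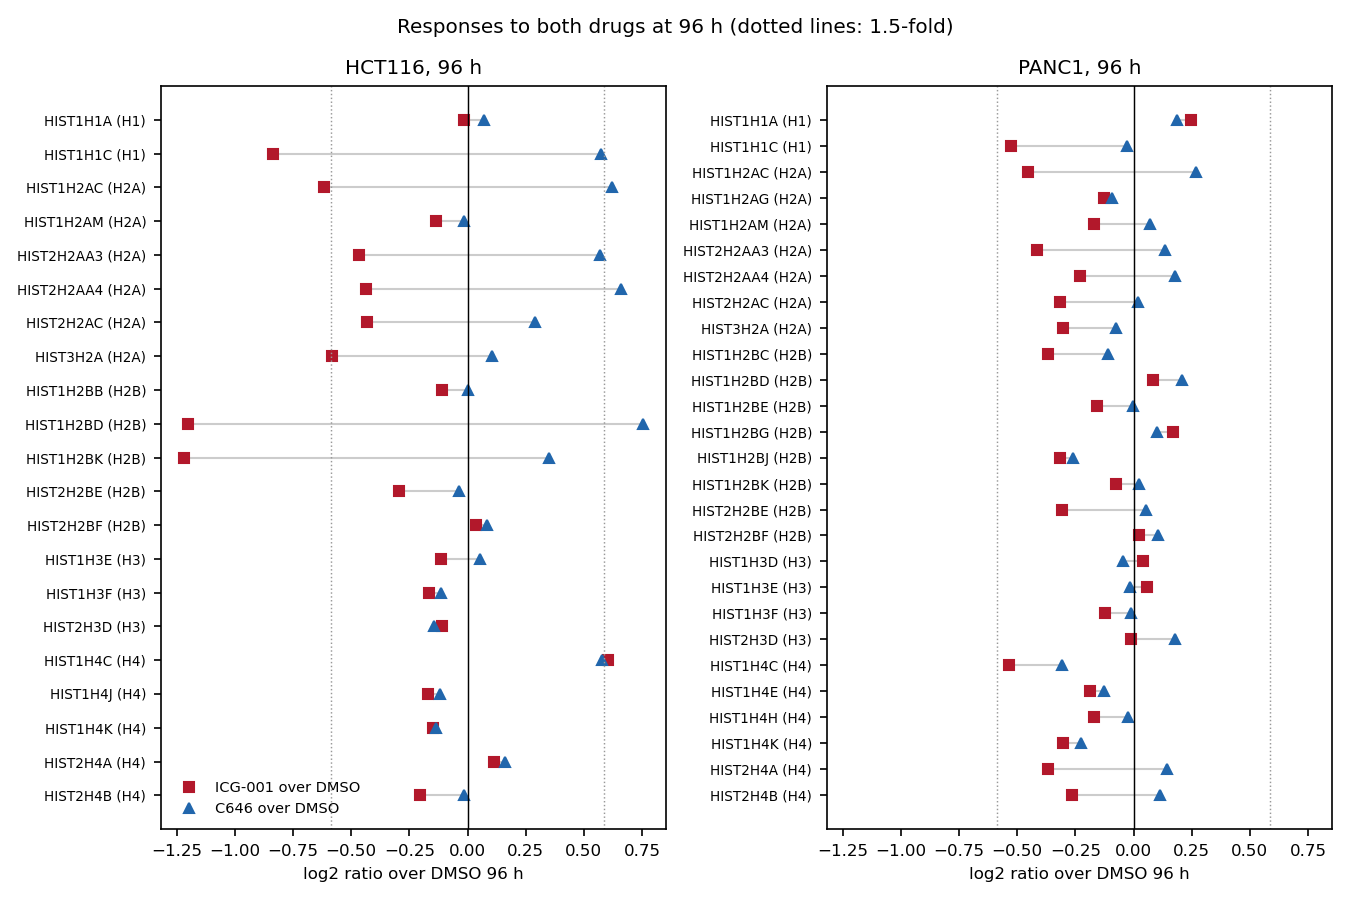
Log2 ratio over DMSO at 96 h (x axis) of each histone row tested with both drugs (y axis, histone type in brackets) in HCT116 (left) and PANC1 cells (right), with squares for ICG-001, triangles for C646 and dotted lines at 1.5-fold in either direction. The widest gaps are those of HIST1H2BD and HIST1H2BK in HCT116 cells, and no PANC1 point crosses a dotted line.

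In PANC1 cells with ICG-001 0 of 30 histone rows were called at 12 h and 0 of 27 at 96 h. Over all rows, 2.16% of 17376 were higher and 0.334% lower at 12 h, and 3.83% of 17421 were higher and 3.54% lower at 96 h. The median log2 ratio of the histone rows was 0.04 at 12 h and -0.19 at 96 h. Of the 25 above the limit in both columns at 96 h 19 lay below 0, as did 52.8% of 14544 rows. HIST1H4C had 17537 with DMSO and 12087 with ICG-001 at 96 h (log2 ratio -0.54), and HIST1H1C 1106 and 767 (log2 ratio -0.53), both short of a call. With normexp 5 of the 27 passed 1.5-fold at 96 h and 1 of the 30 at 12 h, as did 16.7% and 7.19% of all rows.

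HIST1H2BK and HIST1H2BD, the rows that fell most with ICG-001 at 96 h in HCT116 cells, were not among the lowest of that comparison in PANC1 cells. HIST1H2BK had 3008 (DMSO), 2794 (ICG-001) and 2300 (C646) at 12 h and 3387, 3213 and 3438 at 96 h. HIST1H2BD had 552, 685 and 598 at 12 h and 912, 965 and 1055 at 96 h, so that ICG-001 lay 0.08 above DMSO on the log2 scale at 96 h. The difference between the lines in these ratios was not tested. HIST1H2AC had 372 (DMSO), 391 (ICG-001) and 407 (C646) at 12 h and 450, 329 and 542 at 96 h.

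C646 gave 0 calls among 31 histone rows at 12 h and 0 among 30 at 96 h in PANC1 cells. Over all rows, 3.97% of 17611 were higher and 2.68% lower at 12 h, and 2.81% of 17103 were higher and 1.19% lower at 96 h. The medians were -0.03 and 0.03. With normexp 2 of the 31 passed at 12 h and 1 of the 30 at 96 h, as did 16.9% and 11.3% of all rows. The lowest ratio at 12 h was that of HIST1H2BK (log2 ratio -0.39), followed by HIST1H2BJ, which fell short of a call at 278 with DMSO and 217 with C646. When ICG-001 was set against C646, HIST2H2AA3 was called higher at 12 h (603 against 387, 1.56-fold) and HIST1H2AC lower at 96 h (329 against 542, 1.65-fold). These were 1 of 30 rows each time. With normexp 4 passed at 12 h and 7 at 96 h, as did 7.82% and 15.7% of all rows. All rows were called higher in 1.56% and lower in 0.92% of 17818 at 12 h, and higher in 3.29% and lower in 3.44% of 17832 at 96 h. In PANC1 cells 17 of 25 histone rows above the limit in all 4 columns (68%) were above C646 at 12 h and below it at 96 h with ICG-001, against 17.2% of 14255 rows.

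The other named members changed little or were dim. HIST1H3E, an H3 gene, ranged from 159 to 194 in HCT116 columns and from 149 to 164 in PANC1 columns, and HIST1H3F from 146 to 164 and from 153 to 175. HIST2H4A, an H4 gene with a near-identical copy, HIST2H4B, had 156 with DMSO and 204 with ICG-001 at 12 h in HCT116 cells and 219 and 170 at 96 h in PANC1 cells, with no call against DMSO. HIST1H2BC passed the limit in 1 HCT116 column only, and in PANC1 cells it stood at 194 with DMSO and 150 with ICG-001 at 96 h. Some H2A and H2B genes lie head to head and share the DNA between their starts. HIST2H2AC and HIST2H2BE start 236 bases apart, and their log2 ratios in HCT116 cells at 96 h were -0.43 and -0.29 for ICG-001 over DMSO and 0.29 and -0.03 for C646 over DMSO. HIST3H2A starts 230 bases from HIST3H2BB, which was at or under the limit in all 12 columns. In PANC1 cells HIST1H2BJ and HIST1H2AG, 248 bases apart, were both detected in all 6 columns, and their log2 ratios with C646 at 12 h were -0.36 and 0.05.

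The DMSO columns of a line differed by time, and by the density and passage of the cultures with it, which cannot be told apart. In HCT116 cells HIST1H4C was called lower at 96 h than at 12 h (1.72-fold, from 20021 to 11608), 1 of 23 histone rows, where 1.54% of 16848 rows were lower and 1.54% higher. HIST1H2BD stood 1.49-fold higher at 96 h, and the median of the histone rows was 0.02. In PANC1 cells HIST1H2BD was called higher at 96 h (1.65-fold, from 552 to 912), 1 of 30 rows, where 0.98% of 16531 rows were higher and 0.333% lower. There the median was 0.12 with 23 of the 26 rows above the limit in both columns above 0, as were 52.0% of 14398 rows, and HIST1H4C moved from 14424 to 17537 (log2 ratio 0.28). The sizes of the drug ratios may be read against these differences between control columns.

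Genes of DNA synthesis and of histone mRNA processing were set beside the histone rows. A list of 35 DNA synthesis genes, which include the MCM helicase subunits and PCNA, was taken as a measure of S phase RNA. In HCT116 cells with ICG-001 its median log2 ratio was -0.56 at 12 h, with 16 of 35 called lower against 4.15% of all rows, and 0.12 at 96 h, with 3 higher and 3 lower against 5.12% and 5.1%. The histone medians for the same comparisons were 0.14 and -0.17. With C646 the list had medians of 0.12 at 12 h and 0.11 at 96 h, with 1 and 3 genes called higher against 2.57% and 1.9% of all rows. In PANC1 cells with ICG-001 its medians were -0.27 at both times, with 2 of 35 genes lower at 12 h and 11 of 34 at 96 h, against 0.334% and 3.54% of all rows. Between the DMSO columns of HCT116 cells 26 of its 35 genes were lower at 96 h (median -0.82), against 1.54% of all rows, and HIST1H4C was the histone row called lower there.

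**Figure D4:**
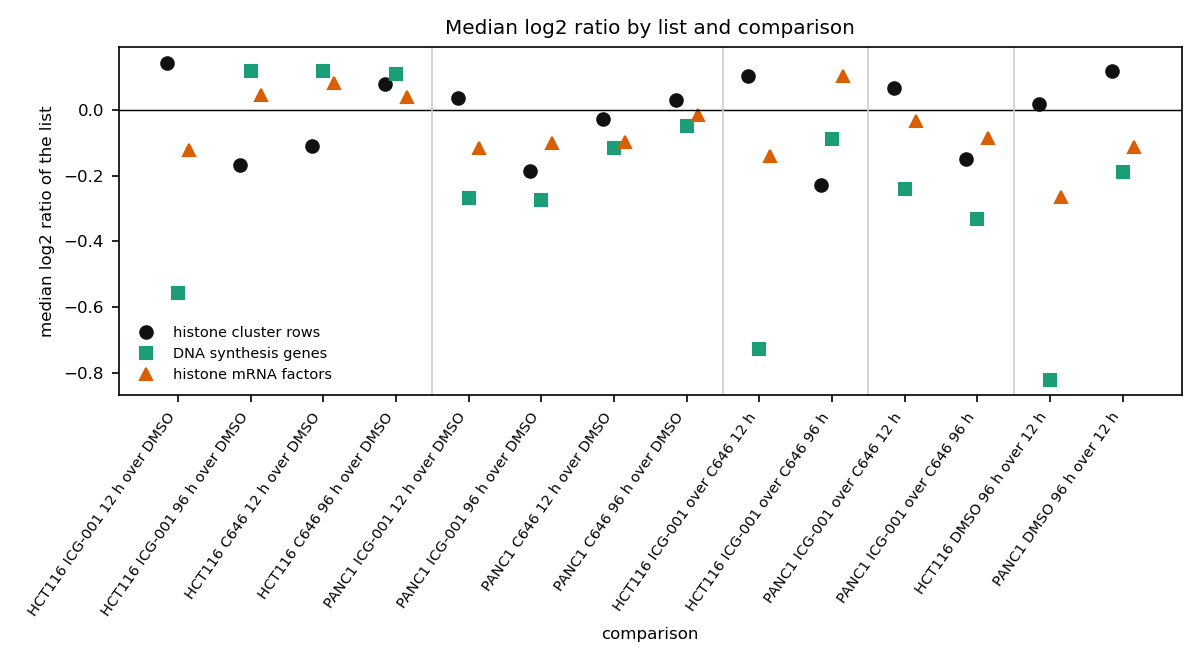
Median log2 ratio (y axis) of the histone rows (circles), the DNA synthesis genes (squares) and the histone mRNA factors (triangles) in the 14 comparisons (x axis), over the rows of each list that passed the detection limit; medians are descriptions with no error. The squares lie lowest in HCT116 ICG-001 over DMSO at 12 h (-0.56), in ICG-001 over C646 at 12 h and in DMSO 96 h over 12 h (-0.82), where the circles lie at or above 0.

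Of 23 factors of histone mRNA synthesis and processing, 21 passed the limit, and LSM11 and CASP8AP2 did not. Their medians over DMSO lay between -0.12 and 0.08 in the 8 drug comparisons. SLBP, the stem-loop binding protein, had 2200 (DMSO), 1613 (ICG-001) and 2390 (C646) at 12 h in HCT116 cells, and 1437, 1487 and 1435 at 96 h. It was called lower between the DMSO columns (log2 ratio -0.61) and in no drug comparison with DMSO. NPAT stayed between 191 and 239 in HCT116 cells and was not called. In HCT116 cells ERI1, an exonuclease that trims and degrades histone mRNA, was called lower with ICG-001 at both times (log2 ratios -0.84 and -0.75). CDK2, a kinase that acts on NPAT with cyclin E, was called lower there at 12 h (log2 ratio -0.74). CCNE2, a cyclin E gene, and LSM10, a subunit of the U7 particle that cleaves histone pre-mRNA, were called higher there with ICG-001 at 96 h (log2 ratios 0.93 and 0.76). Of the 21 factors, 0 were thus higher and 2 lower at 12 h, against 4.81% and 4.15% of all rows. At 96 h 2 were higher and 1 lower, against 5.12% and 5.1%. None of these genes was called over DMSO in PANC1 cells, where ERI1 had log2 ratios of -0.30 and -0.15 with ICG-001 at 12 and 96 h. POU2F1, which encodes OCT1, had log2 ratios between -0.00 and 0.16 in the 8 drug comparisons. The part of these genes in the histone values was not tested.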

How the data were processed

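RNA of the 12 groups was amplified and labelled with the Illumina TotalPrep kit, hybridized to HumanHT-12 v4 BeadChips and, per the study's methods, quantile normalized in GenomeStudio without subtracting background. The deposited table gives the linear signal intensity of each gene name in each group, which the authors averaged over 2 arrays (3 for PANC1 ICG-001 12 h). The methods describe independent biological replicates. Groups came from the labels.

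Signals were compared as log2 ratios of 2 columns of a cell line, in 14 comparisons: 8 of a drug over DMSO, 4 of ICG-001 over C646 and 2 of DMSO at 96 h over 12 h. The detection limit was the mode of the log2 signal (kernel bandwidth 0.02) plus 2.33 SD of the values below it. A ratio of at least 1.5-fold was a call. With 1 column per group no test was run. The procedure was tried on simulated columns, with 2-fold changes placed in rows more than 1 log2 unit above the limit. It was not tried on dimmer rows or smaller changes, which many histone rows have.

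Named members were the 5 listed as giving polyadenylated transcripts, the 8 with the largest log2 ratio over DMSO in each line and the brightest of each type and line. The rule also named any member called in the same direction in at least 3 of the 4 drug comparisons of a line or in both lines, and none met this. Others are named where a comparison or a neighbouring gene calls for them. The other lists were histone mRNA factors, DNA synthesis genes, replacement histones, histone chaperones, and markers of intestinal epithelium, pancreatic duct, fibroblasts and leukocytes; some markers are not reported here. The members, lists and thresholds were chosen with earlier results of these data known.

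Names were matched to the RefSeq gene table, and promoter windows and motifs came from RefSeq (GRCh38.p14). Alternatives were thresholds of 1.2 and 2, a limit at 5 SD, no filter, normexp (offset 16) with quantile normalization within a line, quantile normalization over 12 columns, centring on the median of all rows, and medians without the listed members or over names of 1 RefSeq gene. Rows above the limit in both columns were added as an alternative after seeing the data. Python 3.11.15, numpy 2.4.6, pandas 2.3.3, scipy 1.17.1, matplotlib 3.10.9, R 4.3.3 and limma 3.58.1 were used.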

Additional observations from a re-analysis of the deposited data

How the results depend on the processing

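No test was run, since each group had 1 column and no spread within it. No paired analysis was possible because the columns carry no single replicates. None of the 24 called ratios changed sign under the alternatives. Counts of called histone rows kept within 1.5 times under a limit at 5 SD, no filter on dim rows and centring of the ratios, and in all but 2 comparisons under quantile normalization over 12 columns (HCT116 C646 12 h over DMSO, 1; HCT116 DMSO 96 h over 12 h, 2). For a drug over DMSO, in the order ICG-001 12 h, ICG-001 96 h, C646 12 h and C646 96 h, a threshold of 1.2-fold gave 6, 10, 5 and 8 called rows in HCT116 and 5, 12, 3 and 2 in PANC1, and normexp gave 6, 10, 2 and 6 in HCT116 and 1, 5, 2 and 1 in PANC1. For ICG-001 over C646, 1.2-fold gave 11 at 12 h in HCT116 and 7 and 8 at 12 and 96 h in PANC1, and normexp gave 10, 4 and 7 for the same. For DMSO 96 h over 12 h, 1.2-fold gave 5 in HCT116 and 9 in PANC1, and normexp 4 and 2. A threshold of 2-fold left 2 calls for HCT116 ICG-001 96 h over DMSO, and 0 for HCT116 C646 96 h over DMSO, HCT116 ICG-001 over C646 12 h, PANC1 ICG-001 over C646 at 12 and 96 h, and both DMSO comparisons. Median log2 ratios of the histone rows moved as follows. At 5 SD, which leaves brighter rows, they were -0.43 (HCT116 ICG-001 96 h), -0.20 (HCT116 C646 12 h), 0.29 (HCT116 C646 96 h) and -0.27 (PANC1 ICG-001 96 h) over DMSO, 0.50 and -0.71 at 12 and 96 h for HCT116 ICG-001 over C646, and 0.19 for PANC1 DMSO. Without a filter, which adds rows at background, they were 0.0096 (HCT116 ICG-001 12 h), -0.053 (HCT116 ICG-001 96 h), -0.038 (HCT116 C646 12 h) and -0.052 (PANC1 ICG-001 96 h) over DMSO, -0.047 and -0.061 at 96 h for ICG-001 over C646 in HCT116 and PANC1, and 0.038 for PANC1 DMSO. With normexp they were 0.26, -0.44, -0.25 and 0.20 over DMSO in HCT116 (same order) and -0.41 for PANC1 ICG-001 96 h, 0.29 and -0.64 at 12 and 96 h for ICG-001 over C646 in HCT116, 0.17 and -0.30 in PANC1, and 0.24 for PANC1 DMSO. Leaving out the 5 listed members moved 1 median, HCT116 ICG-001 over C646 96 h, to -0.13. Keeping only rows above the limit in both columns, chosen after seeing the data, moved 3 medians: HCT116 ICG-001 96 h (-0.36) and C646 96 h (0.16) over DMSO and HCT116 ICG-001 over C646 12 h (0.37). Each median kept its sign in 8 of 8 alternatives, except PANC1 C646 96 h over DMSO (-0.012 without a filter) and HCT116 DMSO (-0.0087 without a filter). Of the 24 called ratios, 21 moved to a larger size with normexp and none beyond the background spread under the other 5 settings that apply. Over all rows the share called in either direction was 1.31% to 10.2% as deposited and 5.29% to 22.1% with normexp. Signal over background limits the dim rows: 33 of 70 were never above the limit.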

Other observations

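Of 11 replacement histone genes outside the clusters, H2AFX, which encodes the H2A.X that is phosphorylated at DNA breaks and also yields mRNA without a poly(A) tail, was called lower in all 8 comparisons of a drug with DMSO, with log2 ratios from -1.41 (PANC1 C646 12 h) to -0.59 (PANC1 ICG-001 12 h). Its signals in HCT116 cells were 951 (DMSO), 406 (ICG-001) and 417 (C646) at 12 h and 527, 296 and 343 in the same order at 96 h. H2AFJ, an H2A variant gene, was called lower with ICG-001 at 96 h in both lines, from 428 to 272 in HCT116 cells (log2 ratio -0.66) and from 638 to 362 in PANC1 cells (log2 ratio -0.82). H1F0, a linker histone gene of resting cells, had log2 ratios of 0.52 and 0.28 with ICG-001 at 96 h in HCT116 and PANC1 cells and was not called. H2AFY2, a macroH2A gene, was called higher in PANC1 cells with ICG-001 at 96 h, from 227 to 413 (log2 ratio 0.86). With ICG-001 at 96 h 0 of the 11 were called higher and 2 lower in HCT116 cells and 1 higher and 3 lower in PANC1 cells, against 5.12%, 5.1%, 3.83% and 3.54% of all rows. The median of the 11 genes with ICG-001 at 96 h was -0.39 in HCT116 and -0.13 in PANC1 cells.

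Of 13 histone chaperones, 2 were called lower and 0 higher with ICG-001 at 12 h in HCT116 cells, with a median log2 ratio of -0.33, against 4.15% and 4.81% of all rows. At 96 h 3 were lower and 1 higher, against 5.1% and 5.12%. The lower ones were NAP1L1 (log2 ratio -0.87), SUPT16H (-0.77) and DAXX (-0.59). In PANC1 cells with ICG-001 at 96 h, NAP1L1 (-1.19) and SUPT16H (-1.07) were called lower, 2 of 13, and 0 higher. The shares of all rows there were 3.54% and 3.83%. At 12 h 1 of 13 was lower, SUPT16H (-0.72), and 0 higher, against 0.334% and 2.16%. In HCT116 cells ASF1B, a chaperone of new H3 and H4, was called higher with ICG-001 at 96 h (387 with DMSO and 747 with ICG-001, log2 ratio 0.95). It was also called higher there with C646 at 96 h (626, log2 ratio 0.69). Both HCT116 comparisons share the DMSO 96 h column, in which ASF1B stood lower than in the DMSO 12 h column (758). In PANC1 cells, which have their own DMSO columns, ASF1B was called higher with C646 at 12 h (304 to 480, log2 ratio 0.66). This was 1 of 12 chaperones, against 3.97% of all rows, and SUPT16H (-0.74) was called lower there, against 2.68%. The other PANC1 log2 ratios of ASF1B were 0.45 and 0.45 with ICG-001 at 12 and 96 h and 0.31 with C646 at 96 h, without a call.

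Fibroblast markers summed to a signal of 691 to 737 in HCT116 columns and 684 to 935 in PANC1 columns. Of these 5 genes, COL1A1 alone was above the limit in all columns of both lines, and COL1A2, PDGFRB and DCN were under it in all. The leukocyte marker CD14 was above the limit in all PANC1 columns.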
